A study of Mus musculus with 24 samples.

Results

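Pieces of the same 8 mouse livers were compared after freezing and after an 18 h stay in formalin followed by paraffin embedding (FFPE 18 h). The comparison uses 16 of the 24 libraries of the series, chosen by their sample labels: for each animal 1 library from frozen tissue and 1 from FFPE 18 h tissue, paired by animal number. Control animals 2, 3, 4 and 6 were gavaged with corn oil for 21 days, and furan animals 41, 42, 43 and 44 with furan in corn oil at a daily 8 mg per kg over the same time. All mice were females of the hybrid strain B6C3F1, bought at 5 to 6 weeks of age and dosed after at least 7 days of adaptation, and livers were taken 4 h after the last dose. The frozen piece was snap frozen in liquid nitrogen, and RNA was prepared from about 100 mg of it with the RNeasy Midi kit. From the fixed block, RNA was prepared from 1 section of 10 µm with a kit made for FFPE tissue. The remaining 8 libraries, from pieces kept in formalin for 3 weeks, were not used here.

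Formaldehyde links proteins and nucleic acids to each other and adds chemical groups to bases, and RNA in a paraffin block breaks into fragments over time. Total RNA sequencing after removal of ribosomal RNA does not select for poly(A) tails, so it can read broken RNA as well as RNA that never carries a tail, such as small nucleolar RNAs. The RNA integrity number, a score of how intact RNA looks in electrophoresis, was above 8.9 for frozen RNA and 1.3 to 2.4 for FFPE RNA, per the labels' protocols. Fixation, embedding and storage, the extraction kit, the amount of tissue, the piece of liver and RNA integrity all differ between the 2 kinds of library in the same way, so they cannot be told apart. In such bulk RNA, fewer cells of a type and less RNA per cell cannot be told apart either.

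Frozen libraries held 37978435 to 49326373 counts in genes, and FFPE 18 h libraries held 22889146 to 28054631 counts. Alb, the serum albumin gene that marks hepatocytes, stood between 72805 and 144590 counts-per-million (CPM) in all 16 libraries. Scaling factors (TMM) were 0.835 to 0.930 for frozen and 1.087 to 1.173 for FFPE 18 h libraries. With library sizes alone the median log2 change of all genes was 0.323 in place of 0.00391, so every change below is relative to the bulk of genes and not an absolute amount of RNA. CPM values are not divided by transcript length, and levels are therefore not compared between genes. The frozen library of control animal 3 stood apart from the other frozen libraries: all 18 within-liver differences that lay far from those of the other animals were those of animal 3. The FFPE 18 h library of furan animal 44 stood apart as well, with squamous epithelial, striated muscle and adipocyte transcripts that the other 15 libraries had at few or 0 counts (values are given with the genes listed at 0). No label ties 2 samples of a group to the same mouse, so the 8 animals are the replicates.

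The 2 pieces of a liver differed in most genes, mostly by small amounts. Of 14082 genes tested, 8461 differed between frozen and FFPE 18 h tissue (60.1%; edgeR quasi-likelihood test with animal as block, Benjamini-Hochberg adjusted p below 0.05). In FFPE 18 h 4185 genes were higher (29.7%) and 4276 were lower (30.4%). The log2 fold change, FFPE 18 h minus frozen, lay between -0.33 and 0.40 for the middle 50% of genes, and its 5th and 95th percentiles were -0.76 and 1.27. Large changes were mostly rises: 1121 genes rose at least 2-fold (7.96%) and 157 fell at least 2-fold (1.11%). Against a threshold of 1.5-fold, tested with glmTreat, 1775 genes were called (12.6%), of which 1184 were higher (8.41%) and 591 lower (4.2%). For 2582 genes (18.3%) no frozen library overlapped any FFPE 18 h library, 1295 of them higher (9.2%) and 1287 lower (9.14%) after fixation. With library sizes alone, 80.9% of the calls were rises, against 49.5% with TMM.

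Direction went with abundance. Of the 498 genes with a mean log2 CPM of at least 8, 370 fell and 68 rose, with a median log2 change of -0.45. Among the 10822 genes between 1 and 8, 3775 fell and 3204 rose, and the median was -0.04. Of the 2762 genes under 1, 913 rose and 131 fell, with a median of 0.42. A gene could pass the filter on low counts by its level in 1 kind of library alone, so these values cover only low genes that passed. Without the filter the median of all 19673 genes was 0.084. The part of the filter in the rises of low genes was not tested. The 10 most abundant genes of each library took a median of 23.5% of frozen counts and 20.4% of FFPE 18 h counts, lower in 8 of 8 animals (exact sign-flip permutation test over 8 animals, two-sided, p = 0.0078, the smallest this design allows; 0.0102 after adjustment over 13 library measures).

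**Figure D1:**
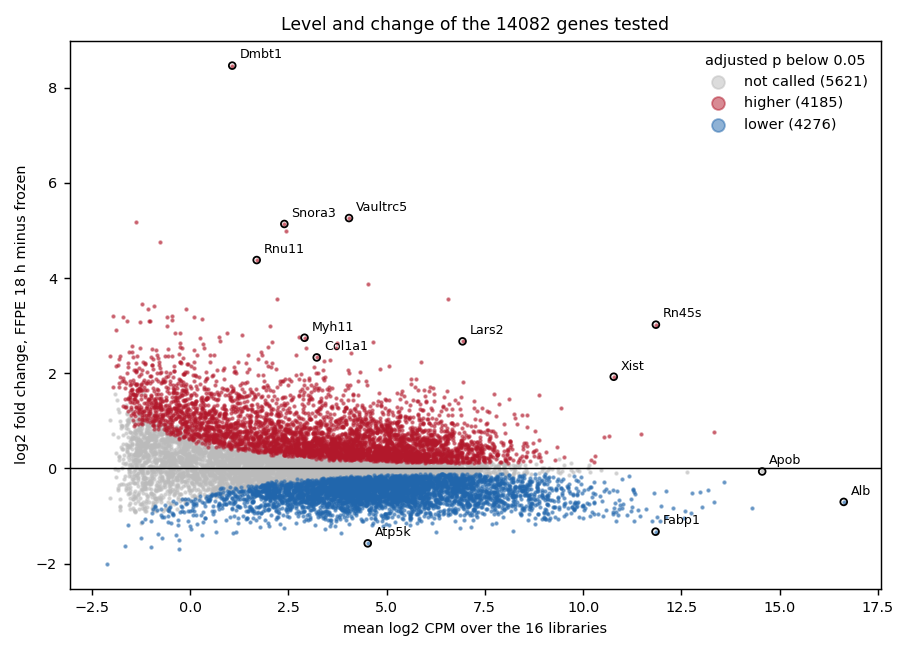
Each point is a gene: the x axis is its mean log2 CPM over the 16 libraries and the y axis its log2 fold change, FFPE 18 h minus frozen, with red and blue for the 4185 higher and 4276 lower genes. Rises reach much further from 0 than falls, and most of the abundant genes on the right, such as Alb and Fabp1, lie below 0.

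Small structured RNAs were among the steepest rises. Box H/ACA small nucleolar RNAs guide the conversion of uridine to pseudouridine in ribosomal RNA, box C/D small nucleolar RNAs guide the addition of methyl groups to ribose, and Cajal body RNAs guide the same reactions on spliceosomal RNAs. In mammals most of them lie in introns of other genes and are cut out of the host transcript after splicing. The sequences of the 4 H/ACA and 3 C/D members with the smallest p are shown, with the letters that define the 2 classes where they were found, and that of Rnu11, which is described after them. These sequences were taken by gene symbol from the GENCODE M21 transcripts of GRCm38, a later build than the mm9 of the counts, and are written 5′ to 3′. Capitals mark ACA placed 3 bases before the end in H/ACA members, and TGATGA within the first 20 and CTGA within the last 20 bases in C/D members; where a member carries no capitals, these letters were not found in those windows. Both were searched on the transcript strand only.
Snora3 (chr7:109520120-109520251, plus strand): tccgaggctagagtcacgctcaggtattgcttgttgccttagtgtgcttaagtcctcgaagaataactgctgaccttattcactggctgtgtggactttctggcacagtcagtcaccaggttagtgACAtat
Snora23 (chr7:110046364-110046547, plus strand): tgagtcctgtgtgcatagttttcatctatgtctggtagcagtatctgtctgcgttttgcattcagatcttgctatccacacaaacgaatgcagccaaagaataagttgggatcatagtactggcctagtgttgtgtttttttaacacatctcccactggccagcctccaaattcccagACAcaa
Snora28 (chr12:111540941-111541067, plus strand): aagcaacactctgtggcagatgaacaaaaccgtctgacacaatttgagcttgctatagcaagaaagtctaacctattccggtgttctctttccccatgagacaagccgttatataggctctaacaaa
Snora81 (chr16:23110756-23110933, plus strand): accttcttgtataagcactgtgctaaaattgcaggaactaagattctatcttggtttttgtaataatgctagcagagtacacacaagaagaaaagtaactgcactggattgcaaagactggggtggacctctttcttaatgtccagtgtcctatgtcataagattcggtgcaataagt
Snord22 (chr19:8725866-8725991, plus strand): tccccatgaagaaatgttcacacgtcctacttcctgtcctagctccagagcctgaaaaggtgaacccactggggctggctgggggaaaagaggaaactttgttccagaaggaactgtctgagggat
Snord104 (chr11:106500993-106501062, plus strand): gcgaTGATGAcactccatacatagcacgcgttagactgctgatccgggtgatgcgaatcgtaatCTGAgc
Snord49b (chr11:62603079-62603150, plus strand): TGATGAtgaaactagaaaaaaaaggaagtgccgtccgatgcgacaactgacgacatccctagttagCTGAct
Rnu11 (chr4:132270080-132270213, minus strand): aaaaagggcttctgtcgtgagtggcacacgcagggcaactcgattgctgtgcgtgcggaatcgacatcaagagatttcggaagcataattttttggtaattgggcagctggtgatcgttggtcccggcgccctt
The ACA was found in 24 of the 29 tested H/ACA members (82.8%) and in 3 of 76 other tested small RNAs (3.9%). The C/D letters were found in 18 of 26 C/D members (69.2%) and in 7 of 79 others (8.9%). A match of letters is a description and shows no function.

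Of 36 H/ACA small nucleolar RNA genes listed, 29 passed the filter on low counts and 4 had no count in the 16 libraries. A gene could pass by its level in FFPE 18 h or in frozen libraries alone. Snora69, for example, passed with a frozen median of 0.0744 CPM. The counts, medians and host comparison of the small RNA lists thus cover only members that passed. Among the 29 tested, 26 rose and none fell, with a median log2 change of 1.32. Of all genes 29.7% rose, with a median near 0. Snora3 stood at 0.53 to 1.21 CPM in frozen libraries (median 0.877) and at 22.2 to 38.2 CPM in FFPE 18 h libraries (median 31.4). The 2 sets did not overlap, and the log2 change was 5.14 ± 0.16 (SE, n = 8 animals; edgeR adjusted p = 3.9e-11). Snora81 went from 0 to 1.99 CPM (median 1.15) to 26.0 to 42.9 CPM (median 35.3), a log2 change of 4.98 ± 0.29. Its frozen value of 0 was that of animal 3. Snora23 stood at 3.09, 6.19 and 9.83 CPM (lowest, median, highest) when frozen and at 69.9, 88.3 and 123 CPM after fixation, 3.88 ± 0.16 on the log2 scale. Snora28 rose by 3.56 ± 0.21, and every one of these 4 genes was higher in 8 of 8 animals with no overlap between the libraries. Snora41, Snora52 and Snora78 did not pass the test, with log2 changes of 1.14, -0.19 and -0.15.

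Of 69 box C/D genes listed, 26 passed the filter and 6 had no count in the 16 libraries. Among the 26 tested, 11 rose and none fell, with a median of 0.63. Snord22 increased from 5.66 to 11.2 CPM (median 6.89) to 29.4 to 55.1 CPM (median 39.5), a log2 change of 2.43 ± 0.08. Snord104 rose by 1.99 ± 0.19 and Snord49b by 3.09 ± 0.41, the latter from at most 0.262 CPM when frozen. In these 3 genes the 2 kinds of library did not overlap. Among the 6 Cajal body RNAs tested, Scarna6 (2.64 ± 0.14) and Scarna10 (2.00 ± 0.25) rose, a share of 33.3% near the 29.7% of all genes. Scarna2, Scarna9, Scarna13 and Scarna17 lay between -0.01 and 0.25 and did not pass. When the fit carried an offset for transcript length and GC content, the medians of the C/D and Cajal body lists turned to -0.20 (3 higher, 6 lower) and -0.63 (2 higher, 3 lower), whereas that of the H/ACA list stayed above 0 at 0.51 (13 higher, 3 lower). The difference between the classes was not tested.

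Other small structured RNAs followed. Rnu11 and Rnu12 encode U11 and U12, the RNAs of the minor spliceosome, which removes a rare class of introns. Rnu11 stood at 0.0593, 0.809 and 1.13 CPM when frozen and at 10.8, 15.4 and 20.2 CPM after fixation, 4.38 ± 0.21 on the log2 scale. Rnu12 rose by 5.18 ± 0.39, although its FFPE 18 h values were only 0.830 to 2.21 CPM. Vaultrc5, an RNA of the vault ribonucleoprotein particle, had the largest log2 change of the lists of small RNAs, 5.26 ± 0.18, from 1.91 to 5.55 CPM (median 2.44) to 79.7 to 141 CPM (median 107). Rpph1, the RNA of ribonuclease P, rose by 1.12 ± 0.25 with overlapping libraries. Rmrp, the related RNA of ribonuclease MRP, and Terc, the telomerase RNA, had log2 changes of -0.02 and -0.61 and did not pass. The median of these other structured RNAs was 1.12, and 0.09 with the offset for length and GC content (3 higher, 3 lower). Together, the genes of all these lists and of the microRNA list described below took a median of 0.0861% of frozen counts (0.0619 to 0.141%) and 0.234% of FFPE 18 h counts (0.208 to 0.330%), higher in 8 of 8 animals (exact sign-flip test, p = 0.0078, adjusted 0.0102). A few abundant members weigh heavily in this share, such as Rpph1 (median 225 CPM frozen, 534 CPM fixed) and Mir6236 (33.8 and 375 CPM). The lists were chosen with earlier results of these data known, and their shares are parts of the same total. The p-values of list shares, here and below, are therefore descriptive and no independent support.

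Most small RNAs inside a host gene had a higher log2 change than the host. How reads in overlapping genes were counted is not given in the sources used here, so reads of an unspliced host transcript and of the small RNA within it cannot be told apart. Of the tested small RNAs, 67 lie in an intron of a tested host gene in the GRCm38 annotation, and 65 of them had a higher log2 change than the host. Their median log2 change was 1.21 and that of their hosts -0.26, and in 22 pairs the small RNA was called higher and the host lower. Snora3 lies in Rpl27a, a ribosomal protein gene that fell by 0.54, and Snora81 in Eif4a2, a translation factor gene that fell by 0.55. Snord2, in the same Eif4a2 transcript, had a log2 change of -0.00. Snora23 lies in Ipo7 (-0.36), Snora69 (4.75) in Rpl39 (-0.53), Snora28 in Eif5 (0.12) and Scarna6 in Atg16l1 (-0.22). All 25 H/ACA members with a host were above it, as were 20 of 21 C/D members and 17 of 18 microRNA precursors. Pairs were compared in the main fit only, and small RNAs and hosts differ in transcript length. Whether the pattern holds with the offset for length and GC content was not tested. The exceptions were Snord42a in Rpl23a and Mir26b in Ctdsp1. Pairs are not independent, since hosts such as Kansl2, Snhg12 and Rpl13a hold 3 members each. In a list of known hosts of small nucleolar RNAs 9 of 16 fell and 3 rose, with a median of -0.43 that turned to 0.09 with the offset for length and GC content.

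**Figure D2:**
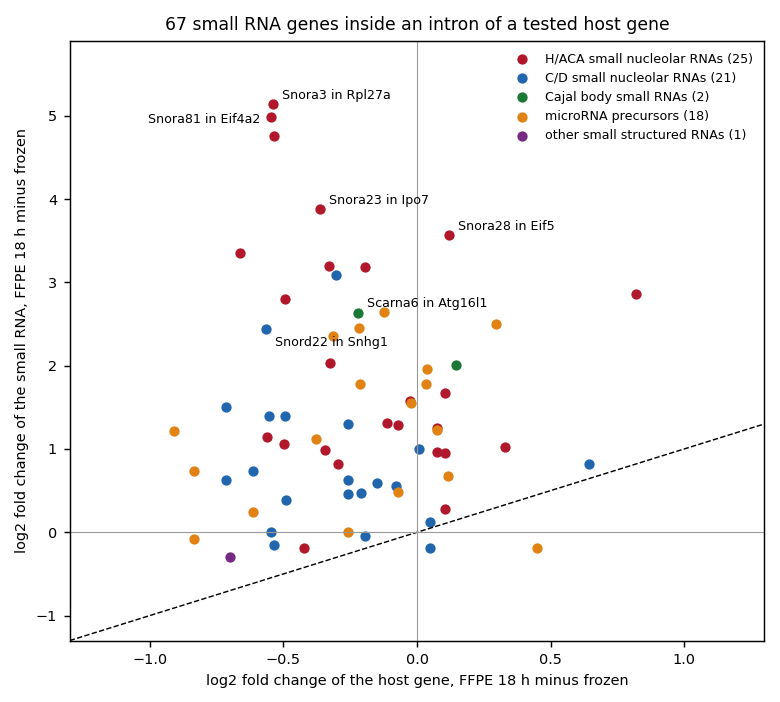
Each point is 1 of 67 small RNA genes inside an intron: the x axis is the log2 fold change of the host gene and the y axis that of the small RNA, FFPE 18 h minus frozen, coloured by class, and the dashed line marks equal change. Nearly all points (65 of 67) lie above the line, with Snora3 and Snora81 at the top left, where the host fell. The values are from the main fit, without the offset for length and GC content.

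Part of the microRNA genes rose as well. A microRNA is cut from a hairpin precursor and pairs with messenger RNAs through its seed, bases 2 to 8 of the mature strand. The libraries were made from fragmented total RNA and report reads over the gene, not the mature strand. Of the 1089 microRNA genes listed, 534 had no count in the 16 libraries and 37 passed the filter on low counts, so the tested ones are a small part. Among those 37, 21 rose and none fell, with a median of 0.73. With the offset for length and GC content the median was 0.41, with 14 higher and 8 lower. The 37 are not all hairpins: they hold the host transcripts Mir143hg (0.73) and Mirlet7bhg (0.36), which rose, and Mir17hg (0.21) and Mir22hg (-0.10), which did not pass. The mature strands of the 4 with the smallest p are given here from the RefSeq table for GRCm38.p6, with the seed in capitals, to show that they do not form a seed family.
Mir6516, 5p strand: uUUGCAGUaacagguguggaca
Mir6516, 3p strand: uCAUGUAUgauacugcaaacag
Mir6236: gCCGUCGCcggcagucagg
Mir1192: aAACAAACaaacagaccaaauu
Mir3068, 3p strand: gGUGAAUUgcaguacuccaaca
Mir3068, 5p strand: uUGGAGUUcaugcaaguucuaacc
No 2 of these 6 seeds are the same. Mir6236 rose from 7.98 to 41.9 CPM (median 33.8) to 95 to 594 CPM (median 375), 3.57 ± 0.21 on the log2 scale. It made up most of the summed level of the list after fixation, whose median was 134 CPM frozen and 525 CPM fixed. Which RNA its reads came from was not tested. Mir6516 went from 3.86, 4.61 and 7.29 CPM to 11.4, 14 and 19.4 CPM, 1.61 ± 0.11. Mir1192 rose by 1.95 ± 0.20 and Mir3068 by 2.50 ± 0.34, both from less than 1 CPM. All 4 were higher in 8 of 8 animals without overlap. The liver microRNA genes Mir122a and Mir192 stood at a median of 0.605 and 0.382 CPM in frozen libraries and did not pass the test.

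RNAs of the nucleus and nucleolus formed the next group. Rn45s is the precursor from which most ribosomal RNA is cut. It stood at 816, 1138 and 2825 CPM in frozen libraries (lowest, median, highest) and at 7961, 10697 and 13272 CPM in FFPE 18 h libraries, 3.02 ± 0.16 on the log2 scale. The highest frozen value was that of animal 3, and the libraries did not overlap. It took a median of 0.102% of frozen and 1.18% of FFPE 18 h counts, higher in 8 of 8 animals (exact sign-flip test, p = 0.0078, adjusted 0.0102). Bead removal of ribosomal RNA was done in all libraries and its yield is not given in the labels, so a difference in removal and a difference in precursor RNA cannot be told apart. Counts under Lars2, a coding gene (mitochondrial leucyl-tRNA synthetase) and not a nuclear RNA, rose from 33.9 to 90.2 CPM (median 48.3) to 240 to 393 CPM (median 303), 2.67 ± 0.14. Whether these reads come from the synthetase messenger RNA was not tested.

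Of 19 long nuclear RNAs tested, 14 rose and 1 fell, with a median of 0.77. Xist coats and silences an X chromosome in female cells. Its level was 721 to 1252 CPM when frozen (median 891) and 3127 to 3891 CPM after fixation (median 3401), 1.93 ± 0.08 on the log2 scale. Jpx, a neighbour of Xist that takes part in its activation, rose by 2.08 ± 0.10. Neat1, the scaffold of nuclear paraspeckles, went from 260 to 621 CPM (median 469) to 757 to 1317 CPM (median 1114), 1.27 ± 0.06. Among the antisense RNAs of imprinted regions, Kcnq1ot1 rose by 1.57 ± 0.08 and Airn by 1.65. Malat1, an RNA of nuclear speckles, rose by 0.77 and Meg3 by 1.72. The strand setting of the counting is not given in the sources used here, so reads of Xist and its antisense partner Tsix (1.05) cannot be told apart, nor those of Kcnq1ot1 and Airn and the genes they overlap. The list took a median of 0.870% of frozen and 2.12% of FFPE 18 h counts, higher in 8 of 8 animals (exact sign-flip test, p = 0.0078, adjusted 0.0102).

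Transcript length went with the change across the whole table. Genes whose transcript was under 200 bases, most of them the small RNAs above, rose in 60 of 98 cases and fell in none. The 90 genes of 200 to 500 bases had a median of -0.34, with 24 higher and 37 lower. From 500 bases upward the median log2 change climbed with length, from -0.49 in transcripts of 500 to 1000 bases, through -0.29 at 1000 to 2000 and 0.03 at 3000 to 4000, to 0.40 in those over 8000 bases. Of the 770 genes of 500 to 1000 bases 430 fell, and of the 685 genes over 8000 bases 68.0% rose. Over 13958 genes with a length (99.1% of those tested) the rank correlation of the change with length was 0.375, and with GC content it was 0.116; genes share libraries and are not replicates, so no p is given. The correlation with length was above 0 in each animal (0.224 to 0.369), while that with GC content ran from 0.0366 to 0.263 in 7 animals and was -0.357 in animal 3. Among transcripts of at least 3500 bases the median change rose from 0.04 at under 45% GC to 0.44 at 55% GC and above. In the middle one of 3 length classes it went from -0.25 to 0.06, while in the shortest it was -0.38 and -0.31 at these ends, lower in between, and the share of genes that rose went from 21.2% to 10.6%. Transcripts under 1000 bases took a median of 3.68% of frozen counts and 2.56% of FFPE 18 h counts, and those over 5000 bases 19.5% and 27.0%, each in the same direction in 8 of 8 animals (exact sign-flip tests, p = 0.0078, adjusted 0.0102). The mean transcript length per count went from a median of 3604 to 4274 bases, whereas the mean GC content per count, 48.4% and 48.5%, did not pass the test (exact sign-flip p = 0.789). Without animal 3 the mean difference in GC content per count was 0.196 percentage points in place of 0.0555 (exact sign-flip p = 0.0469, unadjusted).

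**Figure D3:**
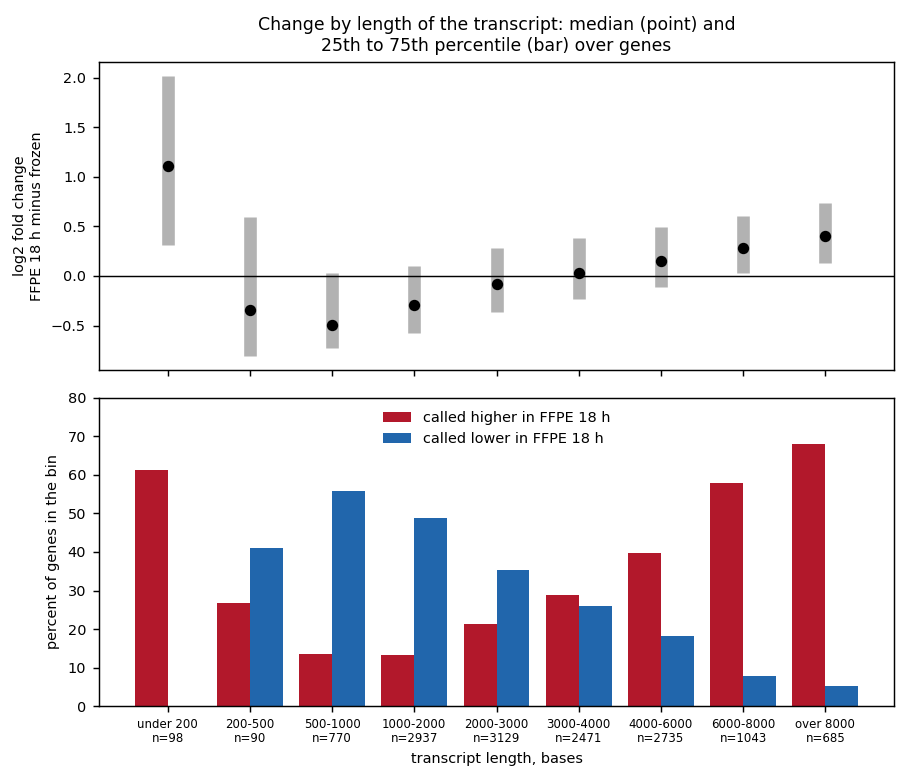
The upper panel plots the median (point) and the 25th to 75th percentile (bar) of the log2 fold change of genes in each class of transcript length, and the lower panel the percent of genes called higher (red) or lower (blue) in FFPE 18 h. The median is 1.11 under 200 bases and -0.34 at 200 to 500 bases, and then runs from -0.49 at 500 to 1000 bases to 0.40 above 8000 bases.

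Outside the small RNAs the steepest rise belonged to Dmbt1, a secreted scavenger receptor protein of mucosal and ductal epithelia. In frozen libraries it had 0 to 30 counts. In FFPE 18 h libraries it had 4335, 3694, 24 and 1035 counts in control animals 2, 3, 4 and 6, and 633, 281, 1797 and 1404 counts in furan animals 41 to 44. Its level was thus 0 to 0.735 CPM (median 0.0712) against 0.918 to 171 CPM (median 45.3), higher in 8 of 8 animals with no overlap, and the log2 change was 8.47 ± 0.37 (edgeR adjusted p = 9.3e-10). The spread among the fixed pieces was large, with animal 4 far below the rest. Other epithelial genes with small counts moved in the same libraries: the mucin Muc6 rose by 2.38 ± 0.26 (0.103 to 1.00 CPM frozen, 1.73 to 3.56 CPM fixed) and Lgals4, a galectin of gut epithelium, by 1.52 ± 0.15. Of the 15 markers of gut and gallbladder epithelium 4 were tested, of which 2 rose and Fabp2 fell (-1.04), and 3 were at 0 in all 16 libraries. The summed level of these markers was 53.8 to 126 CPM in frozen and 34.5 to 60.6 CPM in FFPE 18 h libraries. The part of epithelium from outside the liver lobule in the rise of Dmbt1 was not tested.

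Smooth muscle genes were higher in the fixed pieces. Of 10 markers 9 rose and none fell, with a median log2 change of 2.16 (0.67 to 2.42 within single animals). Myh11, the smooth muscle myosin heavy chain, stood at 1.83, 2.69 and 5.10 CPM when frozen and at 14.1, 17.4 and 33.1 CPM after fixation, 2.75 ± 0.19 on the log2 scale. Acta2, smooth muscle actin, went from 0.729 to 2.89 CPM (median 1.70) to 6.69 to 15.0 CPM (median 9.86), 2.55 ± 0.17. Both rose in 8 of 8 animals without overlap. Actg2 (3.35 ± 0.47), the enteric actin, Synpo2 (3.14 ± 0.31), an actin-binding protein, and Cnn1 (3.11), calponin, rose more steeply from less than 1 CPM, and Lmod1 (1.77), Smtn (0.99), Tagln (0.79) and Mylk (0.43) less so. Mustn1 had a log2 change of -0.04 and did not pass. The summed level of the list was 97.4 to 279 CPM in frozen and 166 to 262 CPM in FFPE 18 h libraries, higher in 7 of 8 animals. With the offset for length and GC content the median was 1.98.

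Collagen and matrix genes rose in part: 16 of 24 were higher and 2 lower, with a median of 0.46 that was 0.17 with the offset for length and GC content (10 higher, 5 lower). Col1a1, the main chain of type I collagen, stood at 3.23, 3.92 and 5.99 CPM when frozen and at 14.6, 22.5 and 26.4 CPM after fixation, 2.33 ± 0.14 with no overlap. Its partner chain Col1a2 rose by only 0.74. Fn1, fibronectin, a matrix and plasma protein made by hepatocytes, went from 1889 to 2857 CPM (median 2100) to 3422 to 3859 CPM (median 3615), 0.73 ± 0.06. The crosslinking enzymes Lox (1.17) and Loxl1 (0.96), elastin (Eln, 0.94) and Timp2 (0.62 ± 0.06) rose, whereas Postn fell by 0.77 and Sparc by 0.16. Of 17 markers of stellate cells, which lay down much of this matrix in injury, 1 rose and 8 fell, among them Dcn (-0.84 ± 0.06) and Hgf (-0.59 ± 0.06), and its median of -0.22 became 0.10 with library sizes alone. The summed matrix level was higher in 8 of 8 animals (2331 to 3334 CPM frozen, 4021 to 4449 CPM fixed). Most of that sum was Fn1: its medians of 2100 and 3615 CPM stand beside medians of 2576 and 4171 CPM for the sum. The sum thus says little about the other matrix genes. The summed stellate level was lower in 8 of 8 animals (875 to 1102 and 716 to 809 CPM).

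The other largest rises were coding genes of varied function. Setd1b, a histone methyltransferase, went from 7.39 to 19.4 CPM (median 8.93) to 50.5 to 74.8 CPM (median 64.8), 2.67 ± 0.14. Atn1, the atrophin transcriptional corepressor, rose by 2.76 ± 0.16. Mospd3 (2.99 ± 0.23), Tro (2.66 ± 0.17) and Prr12 (2.53 ± 0.19) were also among the 12 largest rises outside the small RNA lists, each in 8 of 8 animals and without overlap. Among abundant genes (mean log2 CPM of at least 8), the splicing cofactor Srrm2 rose by 1.54 ± 0.11 (205 to 457 CPM frozen, 716 to 916 CPM fixed) and the semaphorin Sema4g by 1.46 ± 0.07.

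Splicing factors were divided. Of 43 SR proteins, CLK kinases and hnRNPs 18 rose (41.9%, beside 29.7% of all genes) and 11 fell (25.6%, beside 30.4%), and the median was 0.03. Srrm1 (1.10 ± 0.07), Hnrnpd (1.08 ± 0.06), Hnrnpul2 (0.95 ± 0.06) and Luc7l2 (0.89 ± 0.06) rose, while Hnrnph2 fell by 1.04, Hnrnpk by 0.61 and Hnrnpf by 0.54. Of 323 zinc finger genes of the Zfp series 115 rose (35.6%, beside 29.7% of all genes) and 21 fell (6.5%, beside 30.4%). Their median was 0.16, and Zfp395 (2.16 ± 0.12) and Zfp609 (1.43 ± 0.08) led the rises. Olfactory and vomeronasal receptors, which liver does not use, had no count for 1218 of 1452 genes. Of the 11 that passed the filter 4 rose (36.4%, near the 29.7% of all genes) and none fell. The clearest of them, Olfr541 (1.8 ± 0.31), reached at most 1.78 CPM.

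The falls were shallower than the rises. Atp5k, a subunit of the ATP synthase, had the largest fall of the genes at or above 1 in mean log2 CPM that were lower in 8 of 8 animals: 31.1, 39.5 and 52.8 CPM when frozen and 11.4, 13.2 and 15.5 CPM after fixation, a log2 change of -1.57 ± 0.07 with no overlap. Fabp1, the fatty acid binding protein of liver, went from 4821 to 8003 CPM (median 5641) to 1999 to 2932 CPM (median 2208), -1.33 ± 0.05. Fgl1, a hepatokine, fell by 1.31 ± 0.07, Rarres2, chemerin, by 1.33 ± 0.07, and Amy1, an amylase, by 1.22 ± 0.10. Pet100, a cytochrome oxidase assembly factor, fell by 1.36 ± 0.10, and the splicing and exon junction proteins Snrpd2 and Magoh by 1.35 ± 0.19 and 1.28 ± 0.12. Pole3 (-1.26 ± 0.16), Mrps18c (-1.21 ± 0.09), Gm5549 (-1.33 ± 0.20) and Gm9199 (-1.24 ± 0.19) complete the 12 largest falls, all lower in 8 of 8 animals and without overlap. For Snrpd2 the difference was -2.59 in animal 3 and -1.46 to -0.758 in the other animals.

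**Figure D4:**
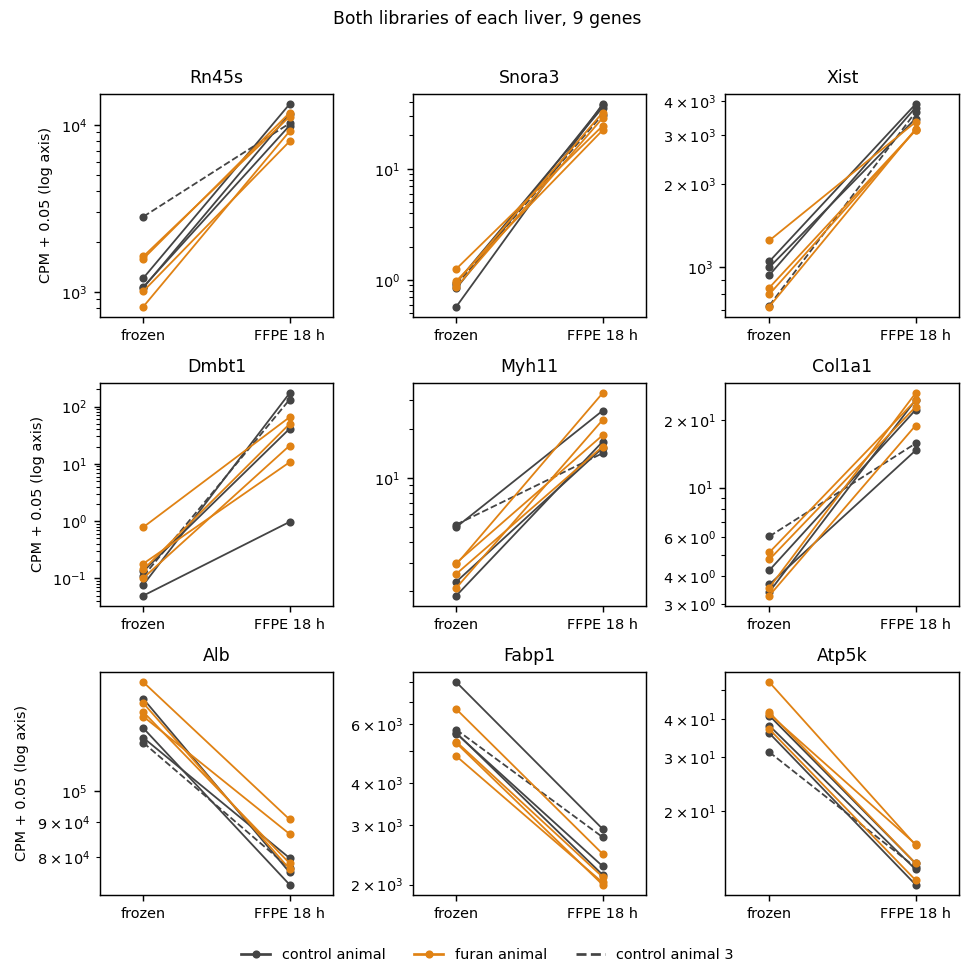
Each panel plots the level of a gene (CPM plus 0.05, log axis) in the frozen and FFPE 18 h library of each liver, joined by a line for each animal, with control animals in dark grey, furan animals in orange and animal 3 dashed. In all 9 genes the lines of all 8 animals run in the same direction, and Dmbt1 shows the widest spread after fixation.

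Genes of the large housekeeping complexes mostly fell. Of 78 subunits of the respiratory chain and ATP synthase 71 fell and 2 rose (Atp5g2, 1.02, and Atp5d, 0.18), with a median of -0.80 beside 30.4% of all genes falling. Atp5b, the catalytic beta subunit, went from 1327 to 1577 CPM (median 1421) to 758 to 878 CPM (median 796), -0.84 ± 0.04, and Atp5a1 fell by 0.85 ± 0.04 and Cox4i1 by 0.90 ± 0.05. Of 38 proteasome subunits 34 fell, with a median of -0.81, among them Psma6 (-1.15 ± 0.06) and Psma7 (-0.95 ± 0.05), and only Psmd11 rose (0.42). Of 74 mitochondrial ribosomal proteins 65 fell and 1 rose (median -0.61, and -0.31 with the offset for length and GC content), Mrps31 by 1.10 ± 0.07. Of 70 cytosolic ribosomal proteins 41 fell and none rose (median -0.46), among them Rps3 (-0.72 ± 0.05) and Rpl4 (-0.55 ± 0.05). With the offset for length and GC content the cytosolic ribosomal median was -0.00, with 9 higher and 19 lower, while the medians of the respiratory and proteasome lists were -0.49 and -0.43. Respiratory subunits took a median of 0.882% of frozen and 0.638% of FFPE 18 h counts, and cytosolic ribosomal proteins 0.178% and 0.149%, each lower in 8 of 8 animals (exact sign-flip tests, p = 0.0078, adjusted 0.0102).

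Replication-dependent histone genes, whose messenger RNAs end in a stem-loop and carry no poly(A) tail, fell in 15 of 26 cases and rose in none, with a median of -0.78. Hist1h1e, a linker histone, went from 26.2 to 66.3 CPM (median 36.7) to 16.4 to 28.2 CPM (median 21.6), -0.84 ± 0.09, with overlapping libraries. Hist1h1d fell by 1.17 ± 0.20, Hist1h1c by 1.14 ± 0.22 and Hist1h1a by 1.04 ± 0.15, all in 8 of 8 animals.

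Hepatocyte genes fell as a rule. Of 49 genes of secreted liver proteins 47 fell, with a median of -0.74 that varied little between animals (-0.80 to -0.68). Alb was at 117842, 129913 and 144590 CPM when frozen and at 72805, 77616 and 90896 CPM after fixation, -0.70 ± 0.04 with no overlap. Of the other 11 most abundant genes of frozen liver, 10 fell: Trf, transferrin (-0.84 ± 0.05), Serpina3k (-1.03 ± 0.05), Apoe (-0.93 ± 0.07), Gc, the vitamin D binding protein (-0.90 ± 0.04), Cps1, the entry enzyme of the urea cycle (-0.81 ± 0.04), Ahsg (-0.70 ± 0.06), Cyp2e1 (-0.51 ± 0.04), Pzp (-0.50 ± 0.04), Sepp1 (-0.46 ± 0.04) and complement C3 (-0.29 ± 0.05, which was 0.03 with library sizes alone). Apob, whose messenger RNA is the longest of the secreted set at 13934 bases, stood at 20634 to 28972 CPM and 22059 to 25696 CPM, -0.06 ± 0.05, and did not pass (edgeR adjusted p = 0.27; 0.26 with library sizes alone). The fibrinogen chains Fgb (-1.11 ± 0.04) and Fgg (-1.10 ± 0.04) and the esterase Aadac (-1.17 ± 0.08) had the largest falls among abundant genes beside Fabp1 and Fgl1. Rbp4, the retinol carrier, was the 1 secreted gene that rose (0.66). The list took a median of 28.9% of frozen and 22.5% of FFPE 18 h counts, lower in 8 of 8 animals (exact sign-flip test, p = 0.0078, adjusted 0.0102). As for the other list shares, this p is descriptive.

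Genes of drug metabolism and zonation fell too, with exceptions. Of 63 cytochrome P450 genes 40 fell and 7 rose (median -0.45, and -0.22 with the offset for length and GC content). With library sizes alone their median was -0.13, with 17 higher and 26 lower. Cyp2a12 (-1.04 ± 0.05) and Cyp2c70 (-1.0 ± 0.06) fell most clearly, and Cyp2t4 (2.39) was the steepest rise. P450 genes of 1 subfamily share sequence, and how reads that map to several places were counted is not given in the sources used here. Of 28 periportal markers 25 fell and 1 rose (median -0.60), among them Arg1 (-0.87 ± 0.04). Of 30 pericentral markers 20 fell and 6 rose (median -0.33, and -0.21 with the offset). With library sizes alone their median was -0.01, with 10 higher and 12 lower. The enzymes Oat (-0.94 ± 0.04), Ces1d (-0.80 ± 0.04) and Rgn (-1.0) fell. The Wnt pathway genes Axin2 (0.41), Lgr5 (0.47), Rnf43 (0.50) and Znrf3 (0.71), the transcription factor Tbx3 (0.74) and the glutamate transporter Slc1a2 (0.53) rose. Cyp7a1, the rate-limiting enzyme of bile acid synthesis, fell by 0.23, and 18 of 24 genes of bile acid synthesis and transport fell (median -0.55), with Slc27a5 at -0.86 ± 0.04 and Cyp7b1 at -0.96 ± 0.06. Major urinary proteins, a cluster of near-identical genes, fell in 11 of 16 cases and rose in none (median -0.63, and 0.12 with the offset for length and GC content), and their share of counts fell from a median of 0.416% to 0.270% in 7 of 8 animals (exact sign-flip test, p = 0.0156, adjusted 0.0185), animal 3 being the exception.

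In lipid metabolism, 18 of 23 cholesterol synthesis genes fell and 3 rose (median -0.44): the enzymes Fdft1 (-0.83 ± 0.06) and Fdps (-0.98 ± 0.08) fell, and Srebf2 (0.68), the transcription factor that drives them, rose along with Dhcr7 (0.59) and Stard4 (0.42). The median of the cholesterol list was -0.12 with library sizes alone (4 higher, 8 lower). Of 31 targets of PPAR alpha, the receptor that switches on fatty acid oxidation, 23 fell and 4 rose (median -0.45), with Plin2 at -0.94 ± 0.04 and Acadvl at -0.95 ± 0.05. The median of these targets was -0.13 with library sizes alone (9 higher, 13 lower). Fatty acid synthesis genes were mixed, 9 lower and 4 higher of 22 (40.9% and 18.2%, beside 30.4% and 29.7% of all genes). Their median was -0.09, and 0.23 with library sizes alone. The transcription factors Mlxipl and Srebf1 rose by 1.27 ± 0.07 (79.4 to 158 CPM frozen, 206 to 349 CPM fixed) and by 0.32, and the enzymes Acss2 (-0.67 ± 0.06) and Acly (-0.41 ± 0.04) fell.

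**Figure D5:**
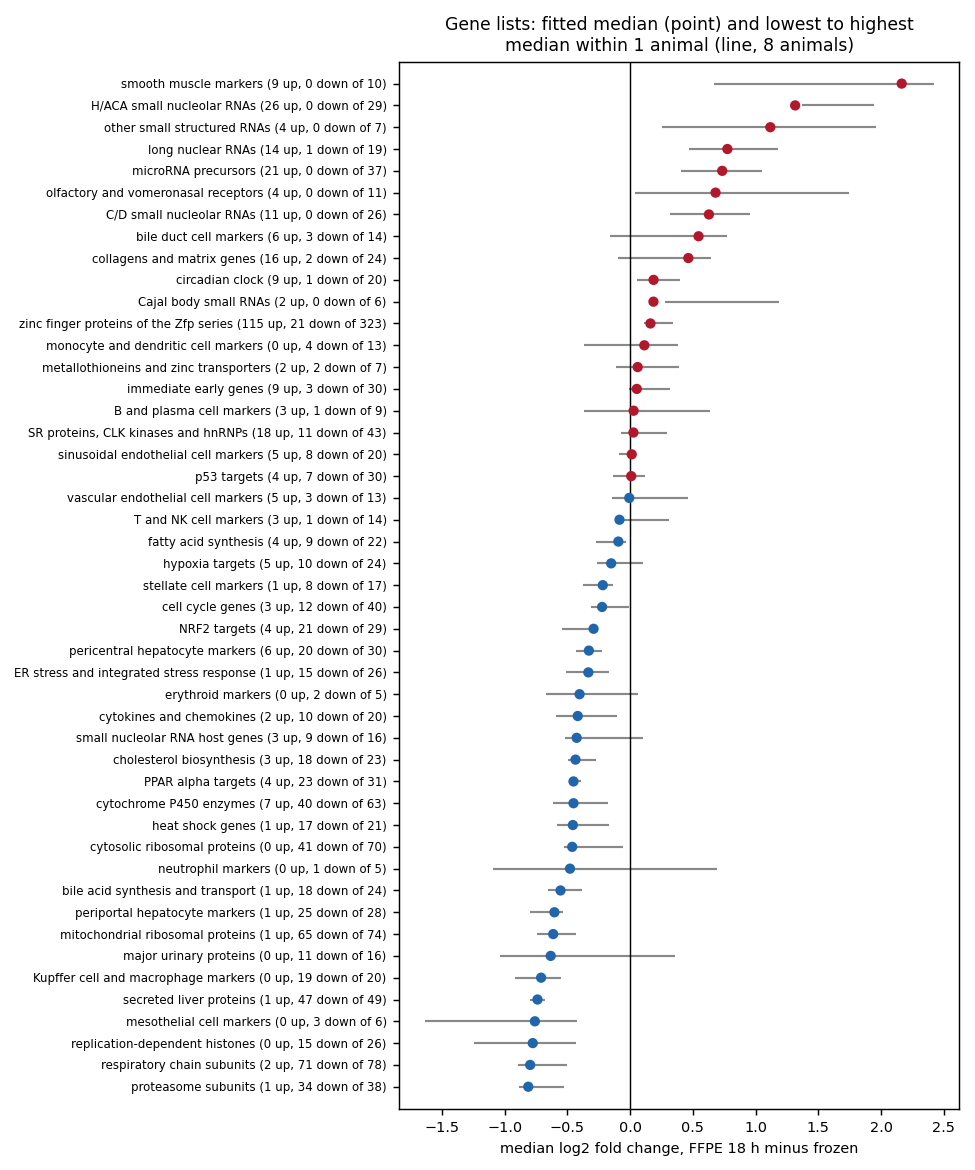
For each list with at least 5 tested members the point is the median log2 fold change of the fit, red above and blue below 0, and the line spans the lowest to the highest median within a single animal (log2 CPM, prior count 2, so a line need not hold its point). Smooth muscle and H/ACA small nucleolar RNA lists stand at the top and the respiratory and proteasome lists at the bottom. With library sizes alone the medians for fatty acid synthesis, hypoxia, NRF2, cell cycle, vascular endothelial, T and NK and stellate lists lay above 0, and with the length and GC offset those of the C/D, Cajal body, metallothionein and sinusoidal lists lay below 0 and those of the host gene, urinary protein, cytokine, and T and NK lists above 0.

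Among stress lists, 81.0% of heat shock genes, 72.4% of NRF2 targets and 57.7% of ER stress genes fell, beside 30.4% of all genes, while falls in the cell cycle (30.0%) and p53 (23.3%) lists were no more frequent than that. Of 21 heat shock genes 17 fell and 1 rose (median -0.46, and -0.14 with library sizes alone, with 2 higher and 10 lower). Hsp90aa1 fell by 1.06 ± 0.08 and Stip1 by 0.71 ± 0.05. Of 26 genes of the ER stress and integrated stress response 15 fell and 1 rose (median -0.33, and -0.10 with the offset for length and GC content). With library sizes alone the median of this list was -0.01, with 8 higher and 9 lower. The chaperones Hspa5 (-1.08 ± 0.05), Calr (-1.06 ± 0.05), Pdia4 (-0.87 ± 0.04) and Hsp90b1 (-0.80 ± 0.04) made up the clearest falls of the list. The ubiquitin ligase Syvn1 was its 1 rise in the main fit (1.4). Targets of NRF2, the sensor of oxidants, fell in 21 of 29 cases and rose in 4, with a median of -0.29 that was 0.03 with library sizes alone. Gsta3 (-0.95 ± 0.05) and Gsta4 (-1.04 ± 0.05), glutathione transferases, had the smallest p. Of 30 targets of p53, 4 rose and 7 fell, with a median of 0.01; Zmat3, an RNA-binding protein, rose by 1.25 ± 0.10. Cell cycle genes fell in 12 of 40 cases and rose in 3, with a median of -0.22 and of 0.10 with library sizes alone. Hypoxia targets had 10 falls and 5 rises in 24 genes (41.7% and 20.8%, beside 30.4% and 29.7% of all genes). Their median was -0.15, and 0.17 with library sizes alone. Ldha fell by 0.77 ± 0.04, and Pfkfb3 and Vegfa rose by 0.99 ± 0.07 and 0.56 ± 0.06.

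Of 20 clock genes 9 rose and 1 fell (median 0.19, and 0.11 with the length and GC offset). Per1, a repressor arm gene of the clock, went from 3.56, 11.5 and 27.0 CPM to 16.8, 30.8 and 76.6 CPM, 1.57 ± 0.13, higher in 8 of 8 animals with overlapping libraries. Nr1d1, the nuclear receptor REV-ERB alpha, rose from 39.5 to 84.4 CPM (median 55.1) to 103 to 154 CPM (median 132) with no overlap, 1.2 ± 0.08. Nfil3 fell (-0.39), and the activators Arntl (-0.10) and Clock (0.04) did not pass. Among 30 immediate early genes 9 rose, a share of 30.0% near the 29.7% of all genes, and 3 fell (median 0.05). Egr1 (1.4 ± 0.17), Myc (0.94 ± 0.15) and Zfp36 (0.62 ± 0.06) rose, Atf3 (-0.70), Dusp6 (-0.37 ± 0.06) and Jund (-0.30) fell, and Fos (-0.17), Jun (0.25) and Junb (0.10) did not pass. Cytokine and chemokine genes fell in 10 of 20 cases and rose in 2 (median -0.42, and 0.03 with the length and GC offset): Ccl9 (-0.63 ± 0.05) and Il18 (-0.81 ± 0.11) fell, and Cxcl12 (0.53 ± 0.04) and Ccl5 (1.82) rose. The metallothioneins Mt1 and Mt2 went in opposite directions, -0.38 ± 0.11 and 0.32 ± 0.07, and their list with zinc transporters had 2 higher and 2 lower of 7, with a median of 0.06 that was -0.12 with the offset. Both shares of this list were 28.6%, near the 29.7% and 30.4% of all genes.

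Markers of the other liver cells gave a mixed picture. Kupffer cell and macrophage genes fell in 19 of 20 cases (median -0.71, and -0.46 with the length and GC offset), the remaining Il18bp being at -0.14. Clec4f, a lectin found on Kupffer cells, went from 112 to 195 CPM (median 121) to 58.3 to 95.4 CPM (median 65.1), -0.97 ± 0.06 with no overlap. Marco (-1.11), a scavenger receptor, Ctss (-1.02 ± 0.06) and the complement gene C1qa (-0.95 ± 0.09) fell alike, and the summed level of the list was lower in 8 of 8 animals (966 to 1716 CPM frozen, 669 to 1057 CPM fixed). Sinusoidal endothelial markers were divided, 5 higher and 8 lower of 20, with a median of 0.01 that was -0.21 with the length and GC offset: Gata4 (0.61 ± 0.07) and Dnase1l3 (0.36 ± 0.05) rose, and Clec4g (-0.48 ± 0.06) and Lyve1 (-0.49) fell. Vascular endothelial markers had 5 rises and 3 falls of 13 (38.5% and 23.1%, beside 29.7% and 30.4% of all genes). Their median was -0.01, and 0.31 with library sizes alone, with Selp at 1.28 ± 0.18 and Cd34 at 0.91 ± 0.18.

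Bile duct genes rose in 6 of 14 cases (42.9%, beside 29.7% of all genes) and fell in 3 (21.4%, beside 30.4%). Their median was 0.55, which was 0.24 with the length and GC offset and 0.11 in furan animals alone. The transcription factors Sox9 (1.23) and Onecut1 (1.03 ± 0.16) and the mucin Muc1 (1.55) rose, and the secreted protein Spp1 (-0.85 ± 0.08) fell. The keratins Krt19 (0.70) and Krt7 (-0.06) did not pass. The keratins Krt8 (-0.95 ± 0.08) and Krt18 (-0.97 ± 0.09), which hepatocytes also make, fell within a mesothelial list of 3 lower of 6 (median -0.76). T and NK cell, neutrophil and platelet lists held few counts. T and NK cell markers had 3 rises and 1 fall of 14 (21.4% and 7.14%, beside 29.7% and 30.4% of all genes). Their median was -0.08, and 0.23 with library sizes alone. Their summed level was higher in 8 of 8 animals (9.38 to 13.1 CPM frozen, 10.5 to 14.3 CPM fixed). Neutrophil markers had 0 rises and 1 fall of 5 (-0.48) and platelet markers 1 and 0 of 3 (-0.04, and 0.28 with library sizes alone). B and plasma cell markers had 3 rises and 1 fall of 9 (0.03), with a share of rises of 33.3% near the 29.7% of all genes. Monocyte and dendritic markers had 0 rises and 4 falls of 13 (0.11), a share of 30.8% near the 30.4% of all genes. The summed levels of these 2 lists were lower in 8 of 8 animals: 173 to 342 and 135 to 202 CPM, and 104.5 to 247.5 and 79.0 to 181.9 CPM. Erythroid markers had 2 falls of 5 (median -0.40), and 6 globin genes are listed at 0 in all 16 libraries. Nerve and Schwann cell markers had 3 rises of 4 (median 0.52), all under 8 CPM. Adipocyte markers had 1 rise and 3 falls of 4 (median -0.29, and 0.03 with library sizes alone); those tested, such as Pck1 and Car3, are also made by hepatocytes.

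Some genes were found in only 1 kind of tissue. In the table of 24015 genes, 1070 had 0 counts in all 8 frozen libraries and at least 1 in FFPE 18 h, 565 had the reverse, and 4342 had 0 in all 16. After thinning to the depth of the shallowest library, a median of 15960 genes had a count in frozen and 16530 in FFPE 18 h libraries, more in 7 of 8 animals (exact sign-flip test, p = 0.0234, adjusted 0.0254). The 3 genes with most counts among those at 0 in frozen tissue were Rptn (208 counts, at least 126-fold higher when 3 counts are set as the floor of the 8 frozen libraries together), Krt13 (155 counts, at least 93.8-fold) and Muc4 (119 counts, at least 72.0-fold). In the opposite set Xlr4a led with 38 counts, at least 6.97-fold higher in frozen tissue, followed by 2310043O21Rik (23 counts) and Toporsl (22 counts). Such floors cover counting error only.

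Rptn and Krt13 came almost wholly from the FFPE 18 h library of furan animal 44, with 198 of 208 and 152 of 155 counts. Muc4, an epithelial mucin, was spread over 7 of the 8 fixed pieces, with 27, 40, 0 and 5 counts in control animals 2, 3, 4 and 6 and 9, 9, 8 and 21 in furan animals 41 to 44. Genes of similar tissues, chosen after their values were seen, showed the same concentration in the library of animal 44: the squamous keratins Krt4 (96.5% of the FFPE 18 h counts) and Krt1 (84 of 85) and the cornified envelope gene Sprr3 (63 of 63), the skeletal muscle genes Acta1 (212 of 217), Myh1 (129 of 130) and Mb (73 of 73), and the adipocyte genes Adipoq (77 of 87) and Cfd (84 of 105). The summed level of the 13 striated muscle markers was 29.1 CPM in that library and 0.688 to 2.00 CPM in the other 15. In all, 22 genes with at least 50 counts had more than 70% of the FFPE 18 h counts in that library and over 5 times the highest frozen count. The FFPE 18 h library of control animal 2 had 2 such genes, Akp3 (98 of 98 counts) and Alpi (61 of 61), both intestinal alkaline phosphatases. Without animal 44, 7905 genes were called in place of 8461, a drop also seen without other animals, such as 7898 without animal 4 and 7914 without animal 6. Of the 2 striated muscle markers tested Atp2a1 had risen by 1.35 ± 0.43, and without animal 44 it was at 1.02 and no longer passed (edgeR adjusted p = 0.0565). The part of tissue from outside the liver in these values was not tested.

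The spread between animals was smaller in fixed than in frozen libraries, a description that was not tested. The biological coefficient of variation, the spread between animals beyond counting noise, was 0.216 in frozen and 0.144 in FFPE 18 h libraries, and the median SD of log2 CPM was 0.275 and 0.188. For 70.6% of genes the SD was smaller after fixation. All these values include the frozen library of animal 3, which stood apart, and are not given without it. Correlations across genes between different animals were 0.945 to 0.988 for frozen and 0.967 to 0.985 for FFPE 18 h libraries. The most alike frozen libraries were thus no less alike than the fixed ones. Across genes, the log2 CPM of the frozen and the fixed piece of an animal correlated at 0.945 to 0.967 (Pearson). Deviations from the group mean were shared by the 2 pieces of an animal, with correlations of 0.0419 in animal 3 and 0.333 to 0.464 in the other 7, against -0.258 to 0.079 between pieces of different animals (24 comparisons). Deviations from a group mean sum to 0 within the group, which lowers the correlations between animals, so part of this contrast is built in. For 7 of 8 frozen libraries the best match was the fixed piece of the same liver.

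Control and furan livers were not separable in how they changed with fixation. The interaction of preservation with furan gave 0 calls of 14082 (0%), with 320 genes (2.27%) at an unadjusted p under 0.05 in edgeR and 0 calls with 335 such genes in DESeq2. Without animal 3 the calls were still 0, with 878 genes at an unadjusted p under 0.05. A test that misses the threshold does not show that both groups changed alike. The 5 genes with the smallest p were Afp, Acmsd, Dmbt1, Snora28 and Cpm, all with an edgeR adjusted p of 0.9999. For Afp, the fetal albumin gene, control livers stood at 4.92 to 6.02 CPM when frozen and 6.75 to 9.52 CPM after fixation, higher in 4 of 4. Furan livers stood at 7.16 to 14 CPM and 6.09 to 11.9 CPM, lower in 4 of 4, and the difference of the log2 changes was -0.95. For Dmbt1 it was -3.62, with rises in both groups.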

How the data were processed

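Total RNA of mouse liver was sequenced after bead removal of ribosomal RNA (TruSeq kit, HiSeq 2000, per the labels' protocols). The authors deposited raw counts per gene symbol, made with CASAVA 1.8.2, STAR 2.3.0 and featureCounts 1.4.4 on mm9, per the submitters' processing notes. Gene models, strand setting and treatment of reads mapping to several places are not given in the sources used here. No row lacked a gene symbol, and no 2 columns were identical.

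The 16 libraries were fitted with edgeR 4.0.16 (R 4.3.3) after TMM scaling and filterByExpr by preservation (minimum count 10); the quasi-likelihood test on animal plus preservation was two-sided, and genes were called at a Benjamini-Hochberg adjusted p below 0.05. The animal block comes from the labels, which number the animals and say that each liver was divided. CPM are TMM-scaled; differences within an animal use log2 CPM with a prior count of 2. DESeq2 1.42.0 was an alternative. Shares of counts were tested over the 256 sign flips of 8 animals. Transcript length and GC content came from GENCODE M21 (GRCm38) by symbol (23611 of 24015 symbols, 920 through a synonym), and the offset used smooth terms from mgcv 1.9.3. The scripts were tested on simulated data. 

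Lists and members were chosen with earlier results of these data known, so the p-values of list shares are descriptive. Genes were named by rule among those called with a mean log2 CPM from 1 upwards and the same direction in 8 of 8 animals: the 12 largest rises and falls outside the small RNA and histone lists, 4 of each inside them and 5 of each among genes at 8 or more. Named too were the 12 most abundant genes in frozen tissue, up to 4 members of each list with the smallest p, the 5 smallest interaction p and the 3 genes with most counts where the other preservation had 0. Members named beyond these were chosen after their values were seen. Some genes the rule names are not reported here. Alternatives covered scaling, filters, depth, the block, single animals left out, each treatment alone and all 24 libraries.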

Additional observations from a re-analysis of the deposited data

Results flagged for a closer look

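Of 68 within-liver differences examined for a value far from those of the other animals, 18 had one, and in all 18 it was that of control animal 3. Chance gives such a value in about 1 in 20 groups. On the log2 scale, FFPE 18 h minus frozen, animal 3 was at 1.85 for Rn45s (2.78 to 3.49 in the other 7 animals) and at 1.48 for Lars2 (2.58 to 3.17). It was at 9.16 for Snora81 (3.78 to 5.19) and at 6.52 for Rnu11 (3.54 to 4.61). Among genes that fell it was at -2.59 for Snrpd2 (-1.46 to -0.758) and at -3.11 for Hist1h1c (-1.24 to -0.570), but at -0.422 for Amy1 (-1.61 to -1.05), -0.803 for Fgl1 (-1.50 to -1.27) and -0.565 for Aadac (-1.40 to -1.02).

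Abundant plasma protein genes of this animal also stood apart: -1.17 for Trf (-0.867 to -0.719), -0.671 for C3 (-0.299 to -0.122), -1.20 for Ahsg (-0.715 to -0.577), -1.54 for Apoe (-0.961 to -0.766) and -0.645 for Serpina3k (-1.18 to -0.928). In percent of counts its difference was -0.179 for respiratory subunits (-0.3 to -0.246 in the others), 0.0692 for major urinary proteins (-0.242 to -0.140) and -0.575 for transcripts under 1000 bases (-1.32 to -1.05). Its mean GC content per count differed by -0.925 percentage points (-0.0448 to 0.395). Without this animal 9550 genes were called in place of 8461, and 8318 of the 8461 were still called.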

How the results depend on the processing

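With the animal as replicate block 8461 genes were called, and without the block 7900. Single animals left out gave 7818 (animal 43) to 9550 (animal 3) calls, 3837 to 4701 higher and 3967 to 4849 lower. DESeq2 called 8694 genes, its size factors 8438, no filter 8401, thinning to the shallowest library 8235 and furan animals alone 8196. Counts moved more with library sizes alone (7431 higher, 1759 lower), control animals alone (4400 called, 2282 higher, 2118 lower), all 24 libraries in the block fit (5553 called, 2575 higher) and the 1.5-fold threshold (1775 called, 1184 higher, 591 lower). The replicate block with the length and GC offset called 8227 genes, of which 6445 were shared and 249 had turned. Without thinning the difference in genes detected was 236.6 and no longer passed.

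Directions that turned in a called gene, or in a list median by more than the SD between animals, were these log2 values. Library sizes alone gave 0.226 for fatty acid synthesis, 0.168 for hypoxia, 0.02836 for NRF2, 0.09537 for cell cycle, 0.3129 for vascular endothelial, 0.232 for T and NK, 0.2842 for platelet, 0.1018 for stellate and 0.02808 for adipocyte lists, and 0.2563 for Apob, 0.02846 for C3 and 0.1687 for Lpl. The replicate block with the offset gave -0.1979 for C/D, -0.6268 for Cajal body, 0.0901 for host, 0.122 for urinary protein, -0.1203 for metallothionein, 0.0328 for cytokine, -0.2102 for sinusoidal and 0.2913 for T and NK lists, and -0.7105 for Scarna17, -0.7223 for Scarna13, 0.2017 for Hist1h2bc, 0.4256 for Mup17, 0.1807 for H2-Aa and 0.05971 for Lcn2. No filter gave 0.4411 for adipocyte, thinning 0.5189 for platelet, and T and NK markers were at 0.0725 with 24 libraries and 0.1071 in control animals alone. Medians near 0 changed sign by less than that SD: B and plasma (-0.2852) and vascular endothelial lists (0.1848) in control animals alone, platelet (0.1762), p53 (-0.06413) and SR protein lists (-0.05183) in furan animals alone, immediate early genes without the block (-0.02217), and these and the sinusoidal, metallothionein, and T and NK lists under some other settings. Of the remaining single gene and list values, 109 lost the call, 16 gained it and 73 medians moved by more than that SD. The cause of these changes was not tested. FFPE 18 h libraries held fewer counts, which limits genes under 1 CPM.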
